A study of Mus musculus with 8 samples.

Results

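The miRNAs described here are the 5p and 3p arms of 5 hairpins from imprinted gene domains of the mouse, namely miR-675 (H19), miR-483 (Igf2), miR-335 (Mest), and miR-296 and miR-298 (the Nespas region of the Gnas domain). Members were chosen by name, as both arms of each hairpin, and all 10 arms were found among the 1966 mature miRNAs of the deposited count table. The question was whether their abundance responds to IL-1β, an inflammatory signal that drives cartilage breakdown in diseased joints. Primary articular chondrocytes, the cells of joint cartilage, were isolated by the study from the femoral heads of wild-type mice aged 3 weeks and received either vehicle or IL-1β at 1 ng/ml for 24 h (n = 4 libraries each). No allele, transgene or second agent distinguished the groups. Whether the replicates came from separate animals or cultures was not stated, so p-values measure only the spread between these libraries.

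An imprinted gene is transcribed mainly or only from the allele inherited from one parent. H19, a long non-coding RNA, is read from the maternal allele, whereas Igf2 (insulin-like growth factor 2), Mest (also called Peg1) and Nespas (a non-coding transcript antisense to the Nesp part of Gnas) are read from the paternal allele. Each hairpin yields a pair of short RNAs, one from its 5′ side (5p) and one from its 3′ side (3p), of which one is often retained and the other degraded. Bases 2 to 8 of a mature miRNA, the seed, pair with target mRNAs. H19 and miR-675 are known in cartilage for their link to Sox9 and to type II collagen, and miR-675 is known to restrain growth. miR-483 is cut from an intron of the Igf2 transcript, and Igf2 drives fetal growth.

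The mature sequences of the 10 arms are given because their seeds set which mRNAs each can bind. They are written 5′ to 3′ as listed by RefSeq for GRCm38.p6, with the seed in capitals.
mmu-miR-675-5p: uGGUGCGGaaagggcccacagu
mmu-miR-675-3p: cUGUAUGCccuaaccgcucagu
mmu-miR-483-5p: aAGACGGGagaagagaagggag
mmu-miR-483-3p: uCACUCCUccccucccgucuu
mmu-miR-335-5p: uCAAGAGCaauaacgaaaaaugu
mmu-miR-335-3p: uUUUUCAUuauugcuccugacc
mmu-miR-296-5p: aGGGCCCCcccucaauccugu
mmu-miR-296-3p: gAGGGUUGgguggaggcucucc
mmu-miR-298-5p: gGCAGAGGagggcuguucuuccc
mmu-miR-298-3p: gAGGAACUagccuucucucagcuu

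No seed was shared between any of the 10 arms, nor with any other miRNA of the table for which RefSeq listed a mature sequence (1675 of 1966 names). Each arm had 1 locus in RefSeq, and its listed length matched the length in the count table. Exact copies were searched for in the annotated transcripts of GENCODE, and none was found outside the hairpin itself and, for both arms of miR-675, its host H19. The G and C content split the set. Both arms of miR-335 were poor in G and C (30.4% for 5p and 36.4% for 3p), whereas the other 8 arms ranged from 50% to 68.2%. The median over 491 tested miRNAs with a sequence was 54.2%. miR-296-3p was the richest, at 68.2%, followed by miR-296-5p at 66.7%. The arms of miR-483 were of opposite kinds, with 21 purines among the 22 bases of miR-483-5p and 19 pyrimidines among the 21 bases of miR-483-3p.

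The positions of the hairpins were read from the same genome build as the alignment (mm10, which is GRCm38). Mir675 lay in an exon of H19 on the same strand (chr7:142577064-142577147, minus strand). Mir483 lay 77776 bases away in an intron of Igf2 (chr7:142654924-142654996, minus strand), which was also an intron of the overlapping gene model Gm49394. Mir335 lay in an intron of Mest (chr6:30741299-30741396, plus strand). Mir296 (chr2:174267047-174267125) and Mir298 (chr2:174267504-174267585) both lay on the minus strand, 378 bases apart. Neither overlapped an annotated gene of GENCODE vM21, in which the gene model of Nespas, on the same strand, ended 13651 bases upstream of Mir298.

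Abundance is given as normalized CPM, that is, counts per 1000000 counts of a library (CPM) after scaling by TMM (trimmed mean of M values). The 8 libraries held 616475 to 1568367 counts, so 1 count stood for 0.638 to 1.62 CPM before scaling. A library without any count could still hold up to 3, or 1.91 to 4.87 CPM. The defining cartilage miRNAs (both arms of miR-140 and miR-455) were present in all libraries, at 15.6% to 16.8% of counts with vehicle and 12.4% to 15.3% with IL-1β. Of the 6 haematopoietic markers 2 had any count, at 0.00441% to 0.00638% with vehicle and 0.00260% to 0.00471% with IL-1β. The 3 muscle markers and the liver marker miR-122-5p were at 0, whereas 1 of 2 endothelial markers had 8 counts in all and 4 of 6 epithelial markers had 20. The part of these shares in the results below was not tested. As in any bulk sample, fewer cells of a type and less RNA per cell cannot be told apart. IL-1β replicate 4 stood apart from its group, with an SD of log2 deviations of 0.40 over 195 abundant miRNAs against 0.15 to 0.23 in the other libraries.

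The 10 arms together took 0.496% of all counts, between 0.431% (IL-1β replicate 4) and 0.566% (IL-1β replicate 2) of a library. Arms above 1 CPM in 4 or more libraries were tested, which applied to 8 of the 10. None of the 8 was called changed by IL-1β (edgeR quasi-likelihood test, adjusted p under 0.05 over all 564 tested miRNAs together with a log2 fold change beyond 0.3 either way). The share called among all tested miRNAs was 1.95%, with 1.42% higher and 0.532% lower. DESeq2 also called 0 of the 8, giving no adjusted p for miR-335-3p. At an unadjusted p under 0.05 in edgeR there was 1 arm, miR-335-3p, where 11.2% of all tested miRNAs had such a p. With DESeq2 the unadjusted p of this arm was 0.0848. The groups overlapped for every tested arm, against 7.62% of tested miRNAs whose groups did not overlap. The median log2 fold change of the 8 arms was -0.059, with 5 below 0, whereas the median over all tested miRNAs was 0.0063, with 49.5% below 0.

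**Figure D1:**
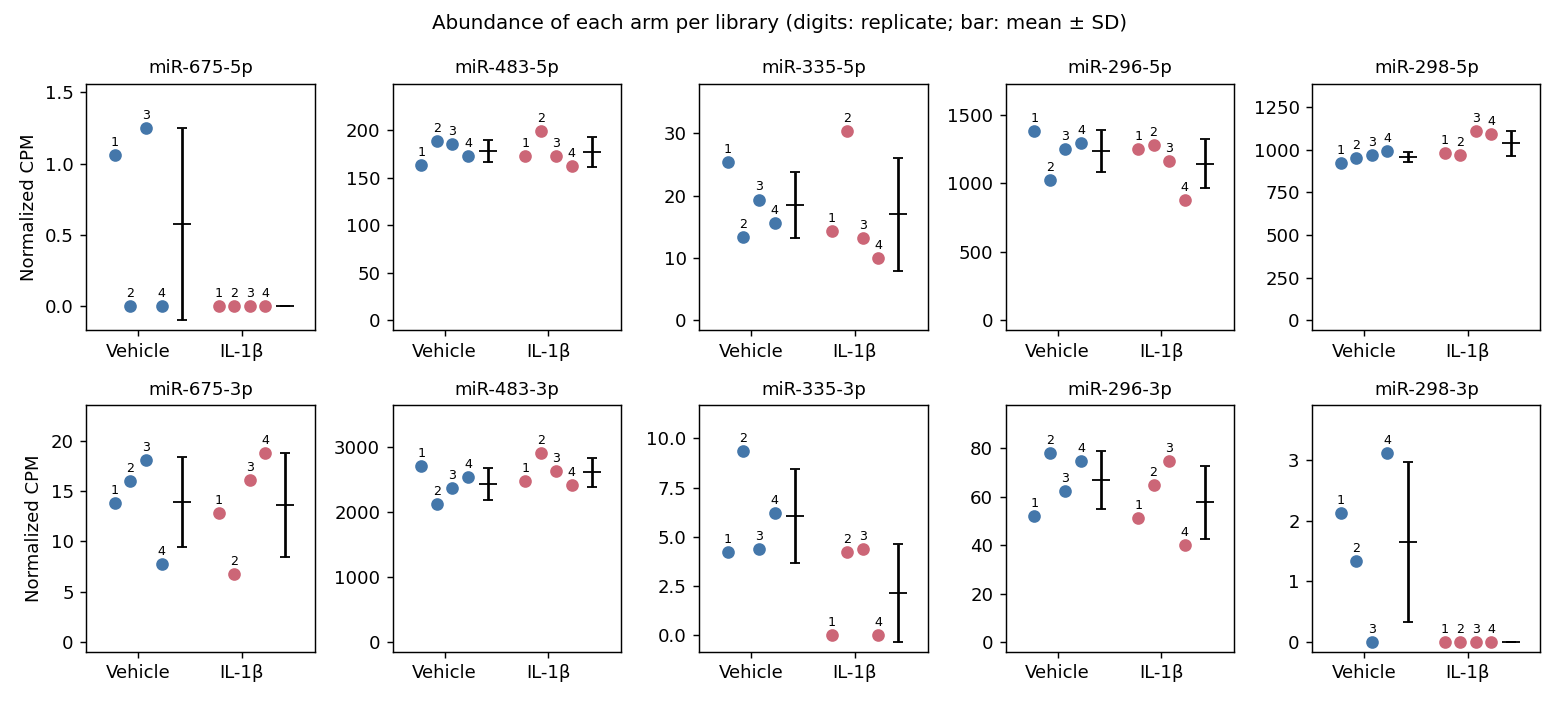
Normalized CPM (y axis, linear, a separate scale in each panel) of the 10 arms in each of 4 vehicle (blue) and 4 IL-1β (red) libraries. Digits give the replicate and black bars the mean ± SD. The groups overlap in all 8 tested arms, and miR-675-5p and miR-298-3p have no count in any IL-1β library.

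miR-483-3p, the more abundant arm of the Igf2 hairpin, was the most abundant of the 10 and ranked 39 in the table. Vehicle replicates 1 to 4 stood at 2704, 2127, 2364 and 2533 normalized CPM. The IL-1β replicates 1 to 4 stood at 2470, 2909, 2630 and 2415. The highest and the lowest library were both replicate 2, of IL-1β and of vehicle. The mean was 2432 ± 246 for vehicle and 2606 ± 222 for IL-1β (SD, n = 4), a log2 fold change of 0.10 ± 0.0901 (SE) that was not called (edgeR adjusted p = 0.754). The 95% interval of the difference ran from 0.943-fold to 1.22-fold.

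miR-483-5p, the other arm of that hairpin, was at 163, 188, 186 and 173 normalized CPM in the vehicle libraries, by replicate. The IL-1β replicates 1 to 4 were at 173, 199, 172 and 162. These ranges nearly coincided, with means of 177 ± 11.6 and 176 ± 15.8 (SD, n = 4). The fitted log2 fold change was -0.0077 ± 0.109 (SE) (edgeR adjusted p = 0.992), with a 95% interval of 0.851-fold to 1.16-fold.

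miR-675-3p represented H19 nearly alone. Its counts were 13, 24, 29 and 5 in vehicle replicates 1 to 4 and 8, 8, 11 and 15 in IL-1β replicates 1 to 4. In normalized CPM these were 13.8, 16.02, 18.1 and 7.79 with vehicle and 12.8, 6.74, 16.1 and 18.8 with IL-1β. The lowest value of each group lay near the other and the highest values did too, so the groups covered the same range. The means were 13.9 ± 4.46 and 13.6 ± 5.19 (SD, n = 4), and the log2 fold change of -0.20 ± 0.328 (SE) was not called (edgeR adjusted p = 0.871). With 113 counts in all, the 95% interval was wide, at 0.544-fold to 1.39-fold. The ratio of the means was 0.977, nearer to no change than the fit. Without IL-1β replicate 2 the log2 fold change was 0.11. miR-675-5p was not tested. It had 3 counts in the vehicle libraries (1 in replicate 1 and 2 in replicate 3) and 0 of 3313205 counts in the IL-1β libraries, which allows up to 0.905 CPM, above the 0.646 CPM pooled over vehicle. A decrease in this arm was not detectable at this depth.

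miR-335-3p, from the Mest intron, had the largest fitted change of the 8 tested arms. Its counts in vehicle replicates 1 to 4 were 4, 14, 7 and 4. In IL-1β replicates 1 to 4 they were 0, 5, 3 and 0. In normalized CPM the vehicle libraries were at 4.24, 9.34, 4.37 and 6.23, and the IL-1β libraries at 0, 4.21, 4.38 and 0. Both IL-1β libraries with counts lay at the level of vehicle replicates 1 and 3, and the other two had none. The means were 6.05 ± 2.38 and 2.15 ± 2.48 (SD, n = 4). The fitted log2 fold change of -1.31 ± 0.634 (SE) had a p of 0.0492 before and 0.440 after adjustment (edgeR), so it was not past the threshold. Its unadjusted p ranked 63 among 564. On leaving out single libraries the log2 fold change ran from -2.02 (without IL-1β replicate 2, edgeR unadjusted p = 0.0220) to -0.93 (without IL-1β replicate 4, edgeR unadjusted p = 0.136). The arm rested on 37 counts, and for IL-1β replicates 1 and 4 a count of 0 allows a level of up to 4.87 and 3.50 CPM.

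miR-335-5p, the more abundant arm of the Mest hairpin, was at 25.4, 13.3, 19.4 and 15.6 normalized CPM in vehicle replicates 1 to 4. The IL-1β replicates 1 to 4 held 14.4, 30.3, 13.2 and 10.0. A single IL-1β library, replicate 2, lay above all vehicle libraries, and replicates 3 and 4 lay below all of them. The fitted log2 fold change was 0.0076 ± 0.307 (SE), with an edgeR adjusted p of 0.992, although the mean was 18.4 ± 5.29 for vehicle and 17.0 ± 9.10 for IL-1β (SD, n = 4). The sign therefore differed between the fit and the means, for a reason that was not tested. Without IL-1β replicate 2 the log2 fold change was -0.56 (edgeR adjusted p = 0.654).

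miR-296-5p, one of a pair of abundant Nespas-region arms, was at 1383, 1024, 1250 and 1294 normalized CPM in vehicle replicates 1 to 4. The IL-1β replicates 1 to 4 were at 1249, 1281, 1166 and 882.3. IL-1β replicate 4 was the lowest of all 8 libraries and the other 3 IL-1β libraries lay within the vehicle range. The means were 1238 ± 153 and 1145 ± 182 (SD, n = 4), and the log2 fold change of -0.11 ± 0.109 (SE) was not called (edgeR adjusted p = 0.757). Its 95% interval was 0.793-fold to 1.08-fold. Without IL-1β replicate 4 the log2 fold change was 0.00041. miR-296-3p was at 52.0, 78.1, 62.5 and 74.8 normalized CPM with vehicle and 51.2, 64.9, 74.5 and 40.1 with IL-1β. Its lowest library was again IL-1β replicate 4. The fitted log2 fold change was -0.20 ± 0.181 (SE), with an edgeR adjusted p of 0.753. It was -0.064 without IL-1β replicate 4 and -0.33 without IL-1β replicate 3.

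miR-298-5p, cut from the neighboring hairpin, was at 921, 952, 967 and 991 normalized CPM in vehicle replicates 1 to 4. The IL-1β replicates 1 to 4 held 979, 968, 1109 and 1092. IL-1β replicates 3 and 4 lay above all vehicle libraries and replicates 1 and 2 lay inside the vehicle range. The mean was 958 ± 29.0 for vehicle and 1037 ± 73.6 for IL-1β (SD, n = 4), a log2 fold change of 0.11 ± 0.0829 (SE) that was not called (edgeR adjusted p = 0.735). The 95% interval was 0.962-fold to 1.22-fold. miR-298-3p was not tested. It had 2, 2, 0 and 2 counts in the vehicle libraries and 0 of 3313205 counts in the IL-1β libraries. Pooled over libraries this was 1.29 CPM with vehicle, above the 0.905 CPM that a count of 0 allows with IL-1β, but it rests on 6 counts and was not tested.

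**Figure D2:**
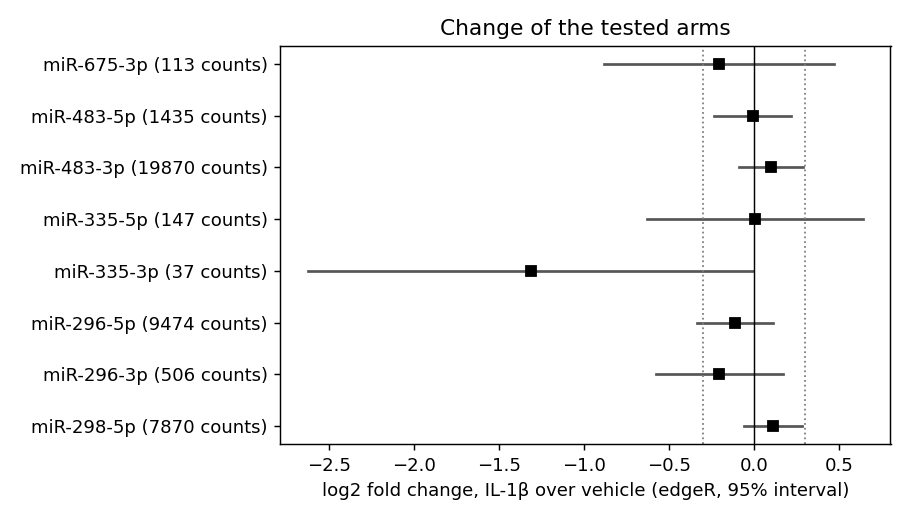
Log2 fold change of IL-1β over vehicle from edgeR (squares) with its 95% interval (lines) for the 8 tested arms, labeled with their total counts over 8 libraries. Dotted lines mark 0.3 on either side of 0. The 4 arms with the most counts have the narrowest intervals, and that of miR-335-3p, with 37 counts, runs from -2.62 to -0.0050.

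The spread between libraries was set against the spread that counting alone would give. For miR-298-5p the coefficient of variation among vehicle libraries was 3.03%, where counting alone gives 3.20%, and among IL-1β libraries it was 7.10%, where counting gives 3.54%. Among vehicle libraries it was 12.3% for miR-296-5p, where counting gives 2.84%, and 10.1% against 2.03% for miR-483-3p. Among IL-1β libraries these were 15.9% against 3.34% and 8.51% against 2.21%. The Nespas-region 5p arms, with 9474 and 7870 counts in all, thus had unlike spreads among the 4 vehicle libraries. This difference between the spreads was not tested. miR-483-5p was close to its counting spread in both groups (6.52% against 7.37% with vehicle and 8.97% against 8.48% with IL-1β). The 95% intervals of the 4 deepest arms reached no higher than 1.22-fold and no lower than 0.793-fold.

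**Figure D3:**
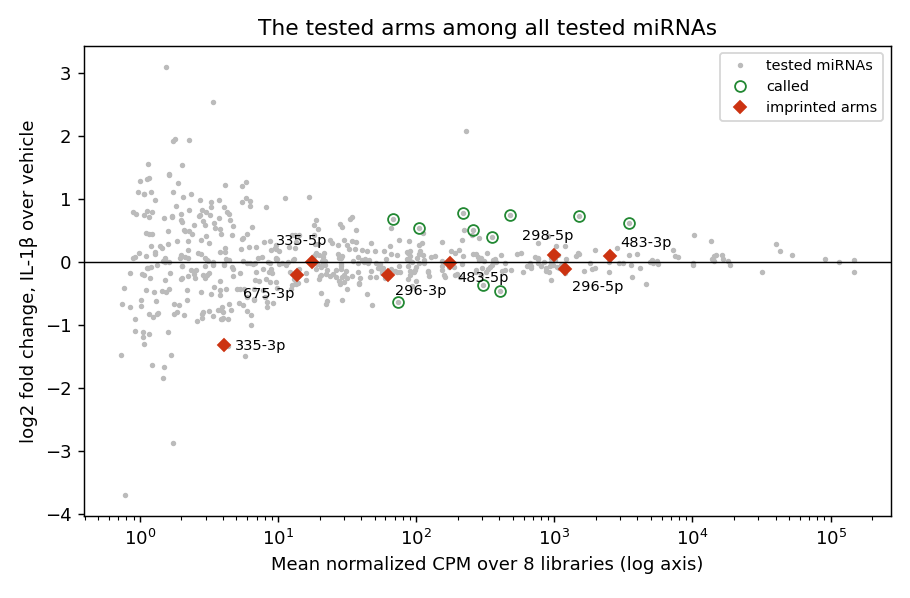
Log2 fold change of IL-1β over vehicle (y axis) against mean normalized CPM over 8 libraries (x axis, log scale) for the 564 tested miRNAs (grey), with the 11 called ones circled in green and the 8 tested imprinted arms as red diamonds. The diamonds lie between -0.20 and 0.11 on the log2 scale, except miR-335-3p at -1.31.

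The order of the levels was compared, with the reservation that ligation and amplification favor some sequences, so that counts of unlike miRNAs are not in proportion to their molecules. All arms were 21 to 24 nt long. miR-483-3p exceeded every other arm in all libraries. miR-296-5p and miR-298-5p came next and did not differ beyond their spread with IL-1β, whereas with vehicle all 4 values of miR-296-5p were the higher. miR-483-5p and miR-296-3p followed, each separated from its neighbors in every library. miR-335-5p and miR-675-3p overlapped in both groups and could not be ordered. miR-335-3p overlapped miR-675-3p with vehicle and lay below it with IL-1β. miR-298-3p and miR-675-5p were at the limit of detection.

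The use of the arms of each hairpin was examined next, as a ratio within a library needs no scaling between libraries. The H19 and Igf2 hairpins gave mostly their 3p arm, and the Mest and Nespas-region hairpins mostly their 5p arm. Over all libraries, the 3p arm took 97.4% of the 116 counts of miR-675 and 93.3% of the 21305 counts of miR-483. It took 20.1% of the 184 counts of miR-335, 5.07% of the 9980 counts of miR-296 and 0.0762% of the 7876 counts of miR-298. Among 142 hairpins with both arms tested, the median share of the dominant arm was 92.0% (interquartile range 74.5% to 98.4%), so miR-483 and miR-296 were near the middle. miR-298 lies outside this set, as its 3p arm had too few counts to be tested, and is not ranked against it. The hairpins of miR-483 and miR-298 are shown because they gave opposite arms, with the mature arms in capitals (RefSeq, GRCm38.p6).
miR-483 hairpin: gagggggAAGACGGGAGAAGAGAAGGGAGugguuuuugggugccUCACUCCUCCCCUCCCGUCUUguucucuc
miR-298 hairpin: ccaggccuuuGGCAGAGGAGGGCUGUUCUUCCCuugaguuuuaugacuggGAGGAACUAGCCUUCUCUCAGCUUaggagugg

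Arm use did not change past the threshold with IL-1β in the 3 hairpins that could be tested (limma on the log2 ratio of 5p to 3p counts, each with 0.5 added, over 142 hairpins). None of the 142 was called (0%), and 8.45% had an unadjusted p under 0.05. This test had limited power, as it recovered 23.8% of simulated ratio changes of 2-fold or more over all 142 hairpins. In hairpins whose arms both had at least 50 counts on average, which miR-335 had not, it recovered 67.4%. The 3p arm of miR-483 took 94.3%, 91.9%, 92.7% and 93.6% of its counts in vehicle replicates 1 to 4 and 93.5%, 93.6%, 93.8% and 93.7% in IL-1β replicates 1 to 4. The IL-1β libraries lay inside the vehicle range, and the difference in the log2 ratio was -0.11 (SE 0.199, limma adjusted p = 0.945). For miR-296 the difference was 0.11 (SE 0.275, limma adjusted p = 0.945), with a 3p share of 5.23% ± 1.45 for vehicle and 4.78% ± 0.896 for IL-1β (SD, n = 4).

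For miR-335 the 3p arm took 14.3%, 41.2%, 18.4% and 28.6% of counts in vehicle replicates 1 to 4. It took 0%, 12.2%, 25% and 0% in IL-1β replicates 1 to 4. All but one of the IL-1β shares lay below the vehicle range, and replicate 3 lay inside it. The log2 ratio of 5p to 3p was higher by 1.57 with IL-1β (SE 0.702, unadjusted p = 0.0560, limma adjusted p = 0.523), with a 95% interval of -0.051 to 3.19. With 2 counts added in place of 0.5 the difference fell to 0.73 (unadjusted p = 0.124, limma adjusted p = 0.791). On leaving out single libraries it ranged from 1.19 (without IL-1β replicate 1, limma unadjusted p = 0.141) to 2.13 (without IL-1β replicate 3, limma unadjusted p = 0.00839). The limma adjusted p on leaving out single libraries ran from 0.322 to 0.811. These shares rest on 8 to 41 counts of the hairpin per library in the IL-1β group, and the ratio uses the same counts as the test of miR-335-3p above.

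**Figure D4:**
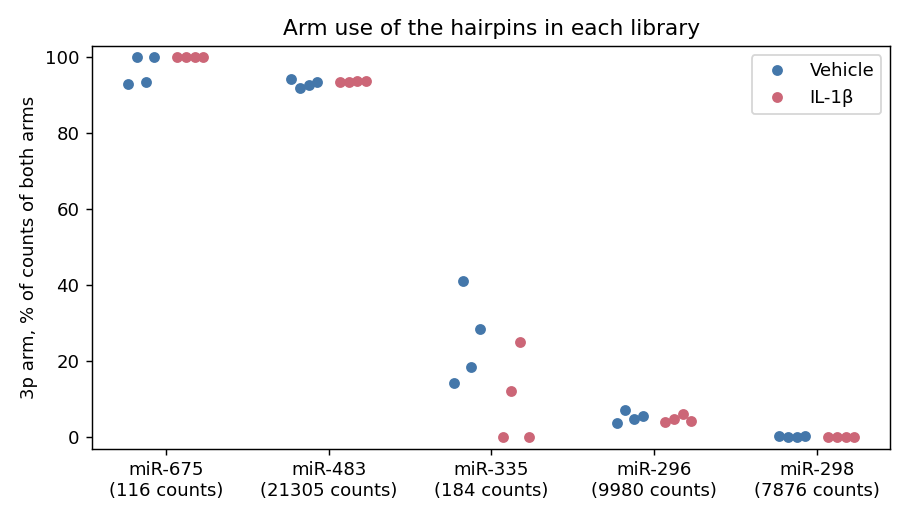
Share of the 3p arm (y axis, percent of the counts of both arms) for the 5 hairpins in each vehicle (blue) and IL-1β (red) library, in order of replicate, with total counts under each name. miR-675 and miR-483 sit between 91.9% and 100%, miR-296 and miR-298 at no more than 7.08%, and miR-335 between 0% and 41.2%.

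Neighbors within a domain were compared inside each library. The ratio of miR-296-5p to miR-298-5p was 1.501, 1.08, 1.29 and 1.31 in vehicle replicates 1 to 4 and 1.28, 1.32, 1.05 and 0.808 in IL-1β replicates 1 to 4. miR-298-5p was the more abundant in IL-1β replicate 4 and in no other library. The mean log2 ratio was lower by 0.23 with IL-1β (the difference was -0.23), where the SD of the log2 ratio was 0.20 with vehicle and 0.33 with IL-1β (two-sided exact permutation p = 0.229, where the smallest possible is 0.0286). The ratio of miR-483-3p to miR-675-3p ranged from 130 to 325 with vehicle and from 128 to 431.5 with IL-1β (difference of the mean log2 ratio 0.16, two-sided exact permutation p = 0.743). After adjustment over these 2 ratios, chosen after the values were seen, p was 0.457 and 0.743.

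The miRNAs whose levels over the 8 libraries were most like those of an arm were sought among 194 others with at least 50 counts on average, as a description of libraries that share depth and scaling. For miR-296-5p they were miR-574-3p (Pearson r = 0.98, Spearman rho = 0.98), miR-410-3p (r = 0.90, rho = 0.98) and miR-1195 (r = 0.90, rho = 0.67). Without IL-1β replicate 4 and vehicle replicate 2, the farthest libraries, r was 0.99, 0.98 and 0.44. The closest to miR-483-5p was miR-30c-5p (r = 0.85, rho = 0.93), to miR-483-3p miR-328-3p (r = 0.76, rho = 0.79) and to miR-296-3p miR-300-3p (r = 0.86, rho = 0.90). Without the farthest 2 libraries of each arm, r was 0.77, 0.37 and 0.72, so the likeness of miR-328-3p to miR-483-3p rested on replicate 2 of both groups. The closest to miR-298-5p was miR-181c-5p (r = 0.86, rho = 0.31), for which r became -0.57 without IL-1β replicates 3 and 4. Next were miR-433-3p and miR-877-5p for miR-483-5p, miR-1195 and miR-3102-3p.2-3p for miR-483-3p, miR-30c-5p and miR-30b-5p for miR-296-3p, and miR-151-3p and miR-93-5p for miR-298-5p, with r from 0.69 to 0.81, and from 0.16 to 0.86 without the farthest 2 libraries. None of these was the other arm of the same hairpin or a neighbor in the same domain. Between the arms of miR-483, r was 0.014, and between miR-296-5p and miR-298-5p it was -0.58.

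The miRNAs of a further imprinted domain, Dlk1-Dio3 on chromosome 12, gave the comparison with other imprinted miRNAs. Of 112 listed names, 107 lay on chromosome 12 between 109563710 and 109747928 (start positions, GRCm38.p6), 1 (miR-496b) lay elsewhere and 4 had no RefSeq entry. They took 20.3% of all counts, against the 0.496% of the 10 arms above. Of 77 tested, 2 were called, both lower with IL-1β (miR-540-3p and miR-381-3p), and 0 were called higher. That is 2.60% called either way, close to the 1.95% of all tested miRNAs (0.532% lower and 1.42% higher). The median log2 fold change was -0.13 over the 77, with 54 below 0 (70.1%, against 49.5% of all tested miRNAs). Whether the H19, Igf2, Mest and Nespas-region arms differed from this domain in their response was not tested.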

How the data were processed

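The deposited values were whole-number read counts per mature miRNA. According to the methods, the authors trimmed reads with cutadapt, aligned them to mm10 with STAR and counted them with featureCounts. The methods and the submitters' processing notes (which name STAR 2.4.2a) gave different STAR versions. The methods name a GENCODE annotation, whereas the table carries miRBase-style mature names, so which intervals were counted as each 5p and 3p arm is not known, and every arm share depends on them. STAR at default settings and the unstated handling of strand and multiple hits could lose or misplace short reads. A batch correction was described. Whole numbers with unequal totals were deposited, which does not settle whether they were corrected, and they were treated as uncorrected.

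Counts of 8 libraries were fitted with edgeR 4.0.16 (quasi-likelihood, robust, TMM, group only) in R 4.3.3. Arm ratios were fitted with limma 3.58.1, and DESeq2 1.42.0 was an alternative. Adjusted p-values follow Benjamini-Hochberg over all features tested, and SE is the log2 fold change divided by the root of F. On simulated counts of 564 miRNAs (200 changed), edgeR recovered 100% of 2-fold and 90.7% of 1.5-fold changes at a mean of at least 50 counts, and 57.0% and 42.1% at any level, with 4.08% false calls. No simulated library was made to stand apart as IL-1β replicate 4 did, so these shares may be too high for the real libraries. In the real fit miR-146a-5p, which the paper reports as raised by IL-1β, was not called (log2 fold change 2.09, edgeR adjusted p = 0.184). Replicates of a group differed by more than counting noise in every pair. The members and lists were chosen with earlier results of these data known, and the text names every arm, other miRNAs sharing a seed, and the 3 closest patterns. Floors and shares cover counting error only, as no molecular identifiers were described. The length column was used only for a check.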

Additional observations from a re-analysis of the deposited data

How the results depend on the processing

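None of the 8 tested arms was called under any of the 15 alternatives, and the log2 fold changes of miR-483-3p, miR-298-5p, miR-296-3p and, where tested, miR-335-3p kept their sign. Without single libraries, miR-483-3p ranged from 0.042 (vehicle replicate 2 left out) to 0.16 (vehicle replicate 1), miR-298-5p from 0.081 to 0.15, miR-296-3p from -0.33 to -0.064 and miR-335-3p from -2.02 to -0.93, and with a mean of at least 10 counts required it was not tested. Signs turned for the other tested arms and for the arm ratio of miR-296. Among these, miR-296-5p had 9474 counts and a log2 fold change of -0.11 in the main fit. Without single libraries, miR-483-5p ranged from -0.079 to 0.036, miR-296-5p from -0.19 to 0.00041, miR-675-3p from -0.44 to 0.11, miR-335-5p from -0.56 to 0.21 and the arm ratio of miR-296 from -0.060 to 0.28. miR-335-5p was also at -0.012 with library totals, -0.0094 without a filter and -0.055 with DESeq2. Over all tested miRNAs, 11 were called, and 7 to 19 without single libraries (7 without vehicle replicate 2 or IL-1β replicate 1, 19 without IL-1β replicate 4), 19 with a replicate block and 18 with 1 factor of unwanted variation. In the Dlk1-Dio3 list 1 to 2 were called without single libraries (1 on leaving out replicate 1 or 3 of either group, or replicate 4 of vehicle). A variance trend on the count of the scarcer arm, added after seeing the data, called 2 arm ratios (miR-210 and miR-877) and none of the 3 here. With that trend the arm ratio of miR-335 had a limma unadjusted p of 0.0174 and an adjusted p of 0.307. For all these the cause was not tested. Replicate numbers were not taken to pair the samples, since deviations of same-numbered libraries correlated between -0.34 and 0.17. Both arms of miR-675 and miR-335 and miR-298-3p had 3 to 147 counts each over all libraries.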
